A study of Mus musculus with 45 samples.

Results

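Zscan4a to Zscan4f are the 6 named members of the mouse Zscan4 gene family, and they were taken by symbol from the 55401 gene rows of the 4 experiments in the series and traced by Ensembl gene ID into the table that holds single libraries. A further 3 rows carry the family name (Zscan4-ps1, Zscan4-ps2 and Zscan4-ps3), were kept apart from the members, and are reported only where a value of theirs bears on the family. Zscan4 proteins pair a SCAN domain, which binds other SCAN proteins, with zinc fingers that bind DNA. In the mouse embryo the genes are transcribed in a burst at the 2-cell stage, when the embryonic genome first becomes active. In cultures of mouse embryonic stem cells (mESCs) they are silent in most cells and switch on in a small, changing subset, in which they are known for a role in telomere maintenance and genome stability. The same cells, called 2-cell-like cells (2CLCs), also express the endogenous retrovirus MERVL. The transcription factor DUX activates both, the DNA-binding proteins DPPA2 and DPPA4 act upstream of DUX, and EHMT2, the enzyme that with its partner EHMT1 places the repressive mark H3K9me2, is among the factors that keep such genes silent.

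RNA-seq had been done on 45 libraries in 15 groups of 3. The time course and the washout experiment used mESCs of mixed BL6/129 strain, all carrying EHMT2-dTAG-mcherry, a degron on EHMT2 that the compound dTAG-13 triggers, in 3 clones (E2-17, E2-20 and E2-K71). The 4 time course groups received DMSO or dTAG for 24 h or 7 d, and the 3 washout groups received DMSO for 15 d, dTAG for 15 d, or dTAG for 7 d and then 8 d without it (Recovery). The sorting experiment used EHMT2-dTAG-mcherry-mervl-gfp cells of the same strain, which were treated for 72 h and then sorted into GFP-negative and GFP-positive cells by a green reporter under MERVL control, so MERVL itself set the gate. The Dppa4 experiment used WTJ1 mESCs and DPPA4KO mESCs, which lack DPPA4 after CRISPR/Cas9 editing, as 3 clones each, treated for 48 h with DMSO or with UNC0638, which blocks the enzyme activity of EHMT2 and its partner. All cultures grew in FBS and LIF on fibroblast feeders. In the first 3 experiments the files used here give the mean of each group and not the single libraries, so these values carry no spread and no test, and their depth is unknown. The Dppa4 experiment gives every library, with 8399885 to 12710949 reads on genes. Values are normalised counts, meaning reads divided by a library size factor, and each experiment had been scaled on its own.

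The labelled cell types were checked against their markers. All 8 mESC markers (Pou5f1, Nanog, Sox2, Klf4, Esrrb, Zfp42, Tfcp2l1 and Dppa5a) were present in all 15 groups, where they summed to between 0.251% and 0.643% of gene counts. In the GFP-positive cells 4 of the 8 were at least 2-fold lower than in the GFP-negative cells, under DMSO and under dTAG alike. The median log2 ratio of the 8 was -1.09 under DMSO and -0.79 under dTAG, against -0.02 and -0.04 over all genes. Nanog went the other way, with log2 ratios of 0.49 and 0.39. Feeder fibroblast markers (8 genes, led by the collagens) summed to between 0.00466% and 0.0223% of gene counts. Dppa4 was at 0 in all 6 DPPA4KO libraries and between 700.4 and 920.5 normalised counts in the 6 WT libraries. The degron removes EHMT2 protein, so the level of Ehmt2 mRNA does not check the dTAG groups.

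The 9 Zscan4 rows lie within 819.9 kb of chromosome 7 (GRCm38, the build of the files; chr7:10794242-11614112). Zscan4c and Zscan4f are on the plus strand, and Zscan4a, Zscan4b, Zscan4d and Zscan4e are on the minus strand. Each row has 4 exons in its longest GENCODE transcript, and GENCODE lists Zscan4a as an unprocessed pseudogene and the other 5 members as protein coding. Zscan4-ps1, Zscan4-ps2 and Zscan4-ps3 are also listed as protein coding, so membership here follows the symbols and not this annotation. The copies are so alike that short reads cannot always be placed. Over aligned exon bases, identity between 2 members ranged from 96.6% (Zscan4b and Zscan4d) to 99.7% (Zscan4b and Zscan4e, 5 differences in 1722 bases), and Zscan4c and Zscan4f differed at 9 of 1806 bases.

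The coding stretch of 90 bases in which the members differ most shows how little separates them. It lies in exon 4 of each copy, for Zscan4c at chr7:11009038-11009127 and for Zscan4d at chr7:11162790-11162879, and 11 of its 90 positions vary. It is written 5′ to 3′ on the gene's own strand, and capitals mark bases that differ from Zscan4c.
Zscan4a: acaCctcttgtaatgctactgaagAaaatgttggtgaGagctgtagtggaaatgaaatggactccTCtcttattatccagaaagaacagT
Zscan4b: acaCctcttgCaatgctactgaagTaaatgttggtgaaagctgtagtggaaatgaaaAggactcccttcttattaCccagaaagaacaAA
Zscan4c: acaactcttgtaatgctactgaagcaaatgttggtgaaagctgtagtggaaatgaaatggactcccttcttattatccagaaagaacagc
Zscan4d: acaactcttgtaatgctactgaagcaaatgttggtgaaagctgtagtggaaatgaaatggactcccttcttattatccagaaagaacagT
Zscan4e: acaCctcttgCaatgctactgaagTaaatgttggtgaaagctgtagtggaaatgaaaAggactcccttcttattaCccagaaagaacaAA
Zscan4f: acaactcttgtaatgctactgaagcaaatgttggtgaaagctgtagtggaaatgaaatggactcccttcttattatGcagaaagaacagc
Zscan4b and Zscan4e are identical to each other here, each with 7 differences from Zscan4c. Zscan4d and Zscan4f each differ from Zscan4c at 1 position, and Zscan4a at 6.

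This likeness sets how far single-copy values can be read. The authors let a read fit up to 5000 places and wrote 1 place per read, in random order among those that scored best. Of all windows of 100 bases within the exons of a member, the share that also occurs letter for letter in another of the 9 copies was 93.1% for Zscan4f, 89.4% for Zscan4e, 82.2% for Zscan4b, 71.2% for Zscan4c, 42.6% for Zscan4a and 27.5% for Zscan4d. For windows of 150 bases, the read length stated for the Dppa4 experiment, the share was 92.0% for Zscan4f and 10.4% for Zscan4d. Values of Zscan4d and Zscan4a therefore rest mostly on bases of their own, those of Zscan4f, Zscan4e and Zscan4b mostly on bases shared with a sister copy, and the family sum does not depend on how shared reads were split among the 6 members, though it does on the split with the 3 rows left out.

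The study's primers for Zscan4d make the same point at the level of an amplicon. They are given 5′ to 3′, with capitals at the positions where at least one other member differs.
Forward primer: ttgaagttcacTggaCaaagAGGtG
Reverse primer: tgtgaagccattgtggtgac
The reverse primer matched all 9 copies without a mismatch, while the forward primer matched Zscan4d fully, Zscan4b with 1 mismatch, Zscan4a with 2, Zscan4e and Zscan4f with 3 each, and Zscan4c with 4.

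RefSeq promoter sequence was at hand for Zscan4b, Zscan4c, Zscan4d and Zscan4f (GRCm38.p6), and none was matched for Zscan4a and Zscan4e. The promoters are shown because the members move together in most of the comparisons that follow. Each is the 250 bases before the annotated start on the gene's strand, at chr7:10905051-10905300 (Zscan4b, minus), chr7:11005495-11005744 (Zscan4c, plus), chr7:11166149-11166398 (Zscan4d, minus) and chr7:11397665-11397914 (Zscan4f, plus). Capitals mark matches to 3 motifs: CAAGGTCA or its reverse complement TGACCTTG, the core bound by NR5A and ESRR receptors; TGATNNNATCA, 2 inverted TGAT half-sites as in sites of paired-type homeodomain factors such as DUX; and TATAAA, the core of a TATA box.
Zscan4b: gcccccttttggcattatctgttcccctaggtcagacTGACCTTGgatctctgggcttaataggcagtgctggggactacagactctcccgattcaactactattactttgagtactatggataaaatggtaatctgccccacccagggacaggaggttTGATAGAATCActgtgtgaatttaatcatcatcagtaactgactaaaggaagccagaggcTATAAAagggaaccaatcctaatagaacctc
Zscan4c: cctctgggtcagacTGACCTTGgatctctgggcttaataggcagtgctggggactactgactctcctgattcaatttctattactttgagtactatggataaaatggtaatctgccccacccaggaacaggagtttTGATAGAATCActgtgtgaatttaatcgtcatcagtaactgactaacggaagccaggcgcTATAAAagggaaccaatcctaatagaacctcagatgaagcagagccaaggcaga
Zscan4d: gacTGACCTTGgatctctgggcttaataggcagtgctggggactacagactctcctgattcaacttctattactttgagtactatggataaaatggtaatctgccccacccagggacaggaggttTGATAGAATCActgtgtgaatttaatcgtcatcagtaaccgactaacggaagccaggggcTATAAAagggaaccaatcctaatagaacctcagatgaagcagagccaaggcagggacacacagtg
Zscan4f: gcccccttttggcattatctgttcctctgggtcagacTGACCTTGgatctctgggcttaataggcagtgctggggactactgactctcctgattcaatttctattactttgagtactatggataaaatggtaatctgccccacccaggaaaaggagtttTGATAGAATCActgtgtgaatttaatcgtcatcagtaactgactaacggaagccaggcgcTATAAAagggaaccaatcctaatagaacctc
All 4 promoters held each of the 3 motifs once and in the same order. Of the 32851 promoters of this length in the table, 1.33% held the NR5A and ESRR core, 0.438% the paired TGAT half-sites and 12.4% TATAAA, on either strand. The TATAAA match began 31 bases before the annotated start in Zscan4b and Zscan4f, 54 bases before it in Zscan4c and 65 bases before it in Zscan4d. Aligned promoters differed at 1 of 227 bases between Zscan4c and Zscan4f and at 13 of 250 between Zscan4b and Zscan4f. The 4 are thus near-copies of each other and do not count as 4 separate cases beside the shares over all promoters. A match describes these letters and shows no binding.

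The level of the family spanned the whole range of the series, from no read to 1.99% of all gene counts. In CPM, the count of the members scaled to one fixed total of gene counts per group and used here only to set the separately scaled experiments beside each other, the 6 members summed to 19944 in dTAG GFP-positive cells and 19170.3 in DMSO GFP-positive cells, which is 1.99% and 1.92% of gene counts. With the 3 further rows added, the shares were 2.76% and 2.71%. Next came dTAG GFP-negative cells at 1028, dTAG 15 d at 683, dTAG 7 d at 521, WT with UNC0638 at 295 and dTAG 24 h at 161. Apart from DMSO GFP-positive cells, the groups without degrader or inhibitor were lower than these. DMSO GFP-negative cells had 125, WT cells with DMSO 79.0, Recovery 45.8, DMSO 15 d 29.5, DMSO 7 d 26.2 and DMSO 24 h 17.0. Both DPPA4KO groups had 0. The order of neighbours has no error attached except in the Dppa4 experiment, where the single WT libraries ran from 10.8 to 181 under DMSO and from 80.2 to 681 under UNC0638, so that the WT groups overlapped each other. In unsorted cultures, more expressing cells and more RNA per expressing cell cannot be told apart.

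**Figure D1:**
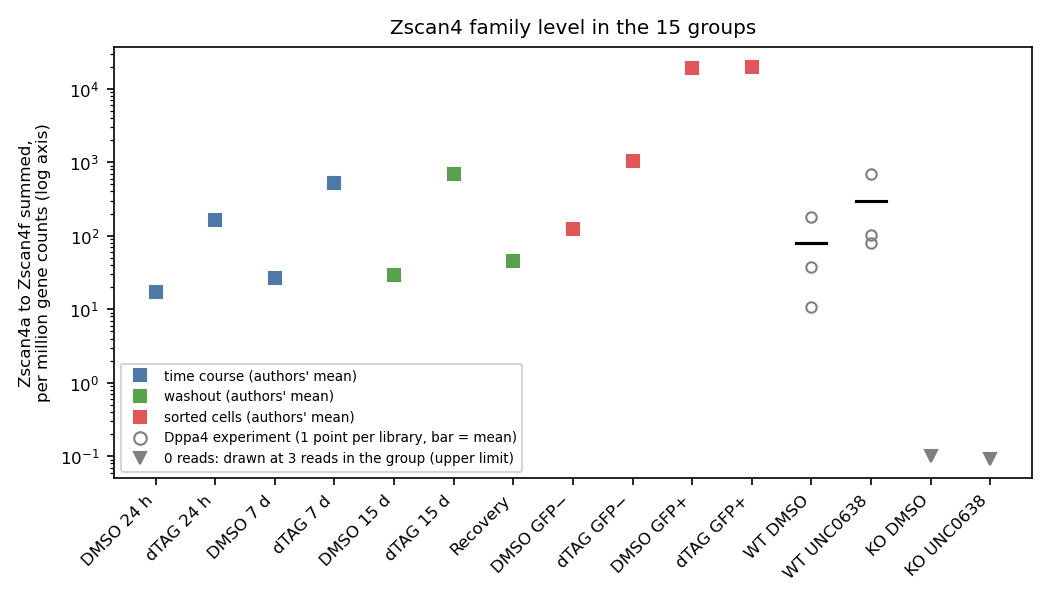
The y axis gives Zscan4a to Zscan4f summed, in CPM, on a log scale, for the 15 groups on the x axis. Squares are the authors' group means, circles are single WT libraries with a bar at their mean, and triangles place the 2 DPPA4KO groups, which had 0 reads, at the limit of 3 reads per group; the GFP-positive groups stand at 19170.3 and 19944.

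Within the family, levels per kilobase of exon were of the same order of size. Zscan4f was highest in 11 of the 13 groups with reads and Zscan4c in both WT groups. At 15 d of dTAG, Zscan4f had 1540.4 normalised counts per kilobase, Zscan4c 1426, Zscan4d 1131, Zscan4e 1031, Zscan4b 818 and Zscan4a 808. The level of Zscan4a, listed as a pseudogene, was thus within 2-fold of that of the leading copy in this group. This did not hold in every group. In dTAG GFP-negative cells Zscan4a had 464 per kilobase and Zscan4f 1081, and in WT cells with DMSO Zscan4a had 52.1 and Zscan4c 111. Of the rows left out, at 15 d of dTAG Zscan4-ps2 had 1368 per kilobase, Zscan4-ps3 810.3 and Zscan4-ps1 455. In WT mESCs under DMSO the first places were taken by Zscan4c at 111 per kilobase and by Zscan4e and Zscan4f, both at 73.3.

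The time course asks how soon and how far the family answers to loss of EHMT2. Under dTAG the authors' means of all 6 members were higher after 24 h and higher again after 7 d. Between the DMSO cultures of these ages all 6 were also higher at 7 d, but by smaller ratios. Zscan4c, a copy with a known role in telomere maintenance, had a mean of 58.0 normalised counts in DMSO and 583 in dTAG at 24 h, and 103 and 1912 at 7 d. Zscan4d, the copy transcribed most at the 2-cell stage, had 33.9 and 464 at 24 h and 50.9 and 1407 at 7 d. Zscan4b was lowest under dTAG, with 216 at 24 h and 696 at 7 d.

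Folds here are ratios of means after adding 1 to each, and only genes whose mean reached 10 in one of the groups are counted as higher or lower, at 2-fold. At 24 h the family sum was 9.54-fold higher under dTAG, the members ranged from 6.24-fold (Zscan4b) to 13.3-fold (Zscan4d), and 6 of 6 passed 2-fold, against 3.58% of all genes. At 7 d the sum was 20.5-fold higher, with members from 17.1-fold (Zscan4e) to 27.1-fold (Zscan4d) and 6 of 6 past 2-fold, against 5.38% of genes. The log2 ratio at 7 d exceeded that at 24 h by 1.10 for the sum. Between the DMSO groups the 7 d sum was 1.54-fold that at 24 h and 0 of 6 members passed 2-fold, which is near the share of 0.862% of genes. The members ran from 1.12-fold (Zscan4b), above the ratio of 73.3% of genes, to 1.77-fold (Zscan4c), above that of 98.3%. The median gene had a log2 ratio of 0.00 at 24 h and 0.01 at 7 d.

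The washout experiment asks whether the family returns once the degrader is removed. Its level after 8 d without dTAG was nearer to that of cultures never exposed than to that under dTAG. Zscan4c had a mean of 162 in DMSO, 3246 after 15 d of dTAG and 246 in Recovery. Zscan4f had 146, 3018 and 239.8 in the same order, and Zscan4d 108, 2569.6 and 206. After 15 d of dTAG the family sum was 22.1-fold that in DMSO and 6 of 6 members passed 2-fold, against 5.48% of genes, in a narrow band from 20.0-fold (Zscan4c) to 25.5-fold (Zscan4e).

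In Recovery the sum was 1003 normalised counts, against 13997 after 15 d of dTAG and 633 in DMSO. Against 15 d of dTAG its log2 ratio was -3.80, and 6 of 6 members were at least 2-fold lower, against 6.99% of genes. Against DMSO, the same control group as above, the sum stood 1.58-fold higher in Recovery, each member was on the higher side, from 1.29-fold (Zscan4e) to 1.90-fold (Zscan4d), and 0 of 6 passed 2-fold, against 1.60% of genes. Without single libraries, this remaining difference cannot be set against the spread between clones. Feeder markers made up 0.00476% of gene counts in Recovery, 0.0121% in DMSO and 0.0170% in dTAG at 15 d, and their part in these values was not tested.

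The sorting experiment separates the family's level in 2CLCs from that in the remaining mESCs. In DMSO, Zscan4c had a mean of 255 normalised counts in GFP-negative cells and 44464 in GFP-positive cells. Zscan4f had 253 and 40919, and Zscan4d 155 and 29920.3. The sum was 170.2-fold higher in GFP-positive cells, with members between 158-fold (Zscan4a) and 191-fold (Zscan4d), and 6 of 6 passed 2-fold, against 17.0% of genes. Under dTAG the sum was 25.7-fold higher in GFP-positive cells, again with 6 of 6 past 2-fold, against 16.0% of genes, and the members lay between 24.4-fold (Zscan4d) and 28.5-fold (Zscan4a).

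The smaller ratio under dTAG came with a higher level in GFP-negative cells, while the level in GFP-positive cells differed less. In GFP-negative cells Zscan4c had 255 under DMSO and 1934 under dTAG, and Zscan4d 155 and 2143. The family sum was 8.16-fold higher under dTAG and 6 of 6 members passed 2-fold, against 5.93% of genes. In GFP-positive cells the sum went from 186662 to 229757, which is 1.23-fold, and 0 of 6 members passed 2-fold, against 5.99% of genes. The log2 ratio of the sum under dTAG was smaller by 2.73 in GFP-positive than in GFP-negative cells. These 4 ratios share their groups and are not independent of each other. Feeder markers made up 0.00466% of gene counts in DMSO GFP-negative, 0.00830% in dTAG GFP-negative, 0.00996% in DMSO GFP-positive and 0.0142% in dTAG GFP-positive cells, and their part in these values was not tested. Residual GFP-positive cells in the GFP-negative gate and expression in GFP-negative cells cannot be told apart in these means.

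**Figure D2:**
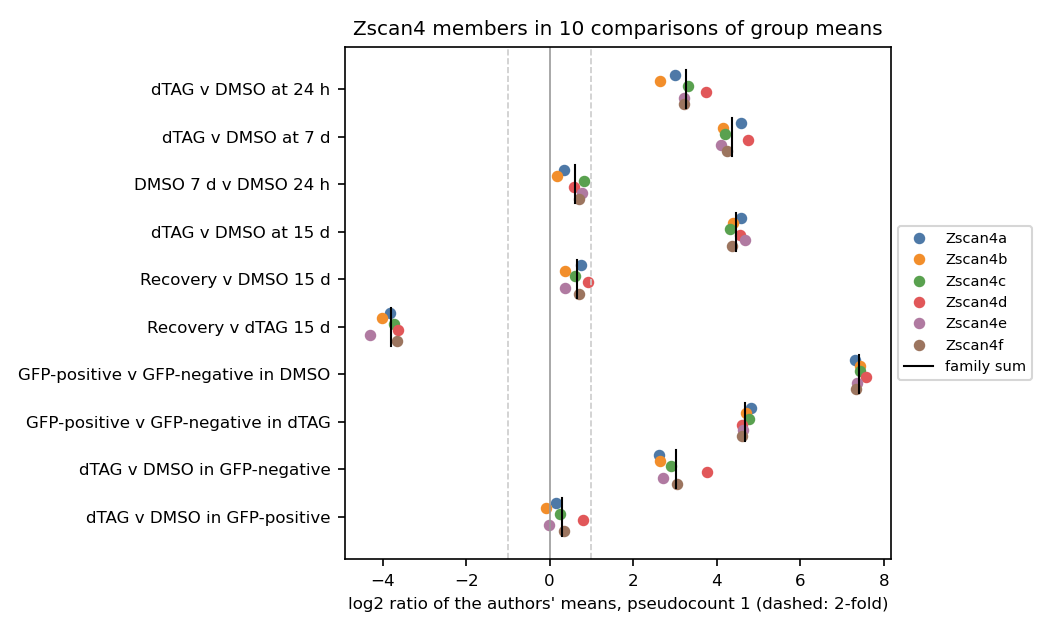
The x axis gives the log2 ratio of the authors' group means (pseudocount 1) for each Zscan4 member (points) and the family sum (black bars) in the 10 comparisons on the y axis, with dashed lines at 2-fold. All 6 points lie past 2-fold in the 5 comparisons of dTAG with DMSO except that in GFP-positive cells, where the sum stands at 0.30, and Zscan4d lies highest at 24 h, at 7 d and in both sorted populations.

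Members did not keep fixed shares of the family. Zscan4d made up 13.8% of the family sum in DMSO and 19.7% in dTAG at 24 h, 13.5% and 18.1% at 7 d, and 17.1% and 18.4% at 15 d. In GFP-negative cells its share was 14.2% under DMSO and 24.0% under dTAG, and in GFP-positive cells 16.0% and 22.8%. It was higher under dTAG in each of these 5 pairs of means, and in Recovery it was 20.6%, above both other washout groups. Zscan4b went the other way in the same 5 pairs, for example from 13.8% to 9.20% at 24 h and from 9.32% to 7.09% in GFP-positive cells. Zscan4c held between 21.6% and 30.3% of the sum over the 13 groups with reads.

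In GFP-positive cells the shift is visible in the levels themselves. Zscan4d had 29920.3 under DMSO and 52348 under dTAG, a 1.75-fold difference, while Zscan4b had 17401 and 16293. Zscan4e, nearly identical to Zscan4b, had 26697 and 26385. Zscan4f had 40919 and 51973, and Zscan4-ps2, which differs from it at 4 aligned bases, 41299.9 and 52052. Zscan4d is the member with the most exon sequence of its own, so its values draw least on reads shared with the others. Where single libraries exist, in WT mESCs, its share of the family's reads was 16.7%, 16.0% and 10.5% in DMSO replicates 1 to 3 and 16.1%, 17.2% and 17.0% with UNC0638. The 95% exact binomial interval of the lowest of these shares was 9.23% to 11.8% and lay apart from the UNC0638 library of the same number, at 16.2% to 17.8%, whereas the intervals of replicates 1 and 2 overlapped between treatments. Such intervals cover counting error only.

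**Figure D3:**
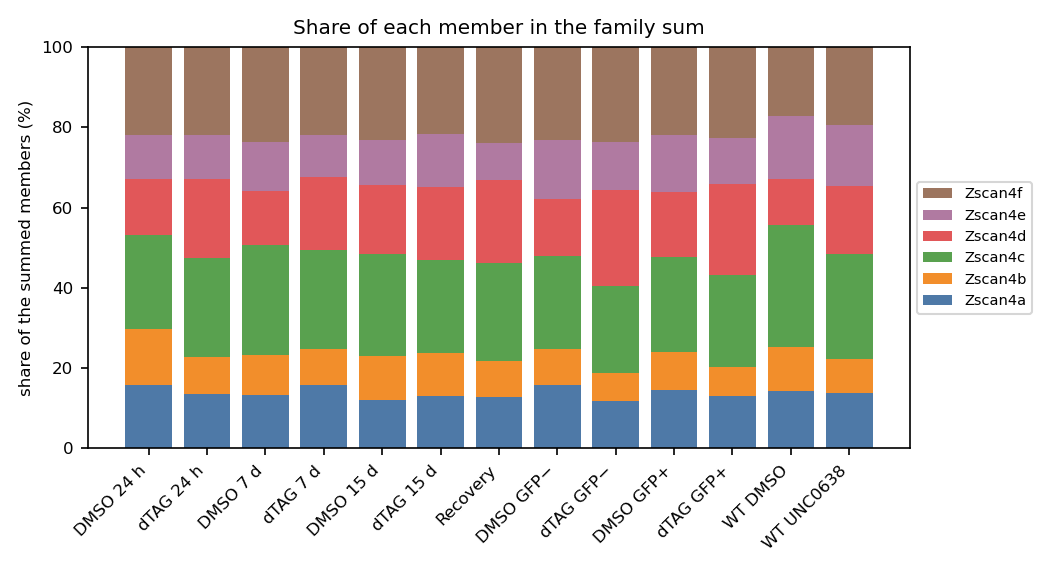
Stacked bars give the percentage of the summed members held by each Zscan4 member (y axis, 0 to 100%) in the 13 groups with reads (x axis). The Zscan4d band is widest in dTAG GFP-negative cells at 24.0% and narrowest in WT DMSO at 11.6%.

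Other genes of the 2-cell stage were followed beside the family as a list of 17 (Tcstv1, Tcstv3, Zfp352, the Usp17l deubiquitinases, Gm21761, the Tdpoz genes, Arg2, Tmem92 and Sp110). Of those with a mean of at least 10, 11 of 11 were at least 2-fold higher under dTAG at 24 h, 16 of 16 at 7 d and 16 of 16 at 15 d, with median log2 ratios of 3.50, 4.44 and 4.72. The shares of all genes were 3.58%, 5.38% and 5.48%. Only 6 of the 17 reached that mean in a DMSO group of the time course, and 8 in DMSO or Recovery at 15 d. The rest entered only through dTAG, where they were high, so these counts add no support. The medians of the Zscan4 members were 3.22, 4.22 and 4.48. In GFP-negative cells 15 of 15 listed genes were higher under dTAG, against 5.93% of all genes (median log2 ratio 3.76, and 2.82 for the members). There too, listed genes with a DMSO mean under 10, such as Zfp352, entered only through dTAG, so this count adds no support either.

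In GFP-positive cells the medians of the listed genes and the family parted. There 14 of 17 listed genes were at least 2-fold higher under dTAG, against 5.99% of all genes, with a median log2 ratio of 1.36. Of the Zscan4 members 0 of 6 were, which is near that share, with a median of 0.19. The median over all genes was 0.01. The members ran from Zscan4b, whose ratio exceeded that of 39.4% of genes, to Zscan4d, whose ratio exceeded that of 91.8%. Zfp352, a zinc finger gene of the 2-cell stage, had 1928 under DMSO and 7042 under dTAG. Usp17lb had 8598 and 51418. Tmem92 and Arg2 were the listed genes nearest the family, with log2 ratios of -0.23 and -0.22. MERVL-int, the internal part of the retrovirus whose promoter drives the sorting reporter, had 1643470.0 and 3256080.0 normalised counts in GFP-positive cells, and MT2_Mm, its promoter repeat, 182380.0 and 458867. Both repeats had a larger ratio between dTAG and DMSO in these cells than the Zscan4 sum, at 1.23-fold. No difference between these lists was tested, since only means are given.

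**Figure D4:**
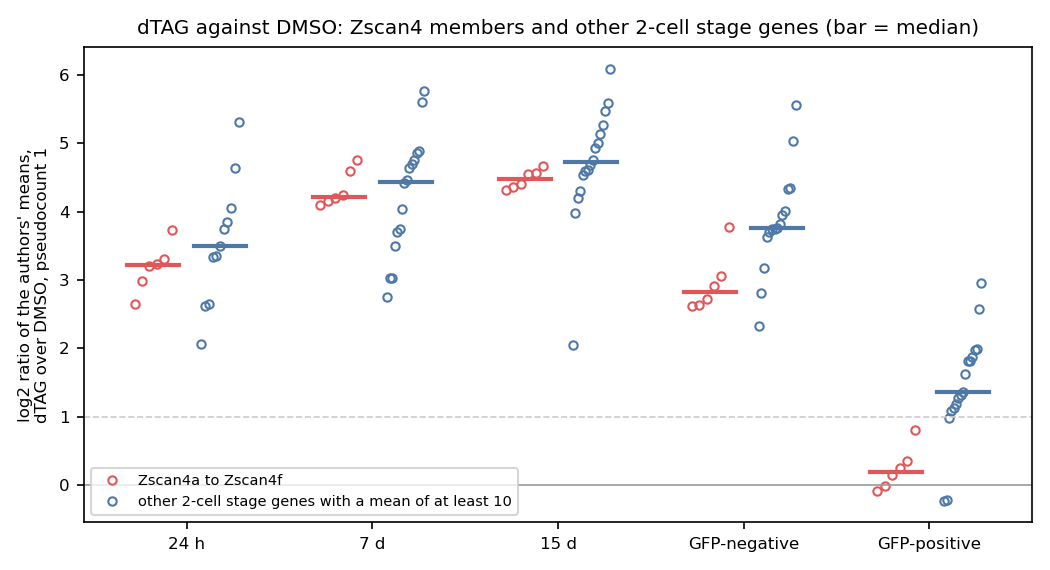
The y axis gives the log2 ratio of the authors' means, dTAG over DMSO (pseudocount 1), for each Zscan4 member (red) and each listed 2-cell stage gene with a mean of at least 10 (blue) in the 5 settings on the x axis, with bars at the medians. Medians lie near each other in bulk cells, and in GFP-positive cells they are 0.19 for the members and 1.36 for the listed genes.

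Of 6 genes listed as activators, Duxf3, which encodes DUX, was higher in dTAG than in DMSO in bulk cells, as the family was. Its mean was 7.20 in DMSO and 18.04 in dTAG at 24 h, 7.06 and 32.7 at 7 d, 8.71 and 90.9 at 15 d, and 7.81 in Recovery. In GFP-negative cells it had 4.96 under DMSO and 30.0 under dTAG. In GFP-positive cells it was lower under dTAG, at 269.9 against 512. Dppa2 was the other activator past 2-fold under dTAG, at 7 d only, with 374 in DMSO and 795 in dTAG. Between sorted populations Dppa2 had 437 in DMSO GFP-negative and 4063 in DMSO GFP-positive cells, and Nelfa, a subunit of the negative elongation factor, 396 and 7317. Dppa4 itself had 516 and 608, and Tbx3 and Smarca5 stayed under 2-fold in that comparison. Among 17 listed repressors (among them Ehmt1, Ehmt2, Kdm1a, Trim28, Setdb1 and the Chaf1 subunits), 0 passed 2-fold in either direction at 24 h, at 15 d or between GFP-positive and GFP-negative cells, and only Myc did at 7 d and in GFP-positive cells, where it was higher under dTAG. Of all genes, 3.58% were at least 2-fold higher under dTAG at 24 h, 5.38% at 7 d, 5.48% at 15 d and 5.99% in GFP-positive cells. For 17 genes, the repressor counts under dTAG are near these shares. Between GFP-positive and GFP-negative cells 17.0% of all genes were higher under DMSO and 16.0% under dTAG.

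The Dppa4 experiment holds the family in single libraries. It asks whether the inhibitor UNC0638 raises the same genes in WT mESCs and whether DPPA4 is needed. In WT, every member was higher with UNC0638 than with DMSO within each replicate number, but libraries of 1 group lay far apart and no member passed the test. The family sum was 112, 392 and 2007 normalised counts in the DMSO replicates 1 to 3 and 759.9, 988 and 6885 with UNC0638, which gives 837 ± 1023 and 2877 ± 3472 (SD, n = 3). Replicate 3 was highest in both groups, and its DMSO library lay above the UNC0638 libraries of replicates 1 and 2. Within replicate numbers the sum was 6.80-fold, 2.52-fold and 3.43-fold higher with UNC0638.

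Zscan4c had 31.4, 107 and 622 under DMSO and 188, 221 and 1856 with UNC0638. Zscan4d had 18.6, 62.7 and 209.8, against 122, 170.0 and 1172. In both genes the groups overlapped through replicate 3 of DMSO. Zscan4f had 10.5, 59.04 and 361 under DMSO and 136, 196 and 1350.1 with UNC0638, the widest span between libraries of a group. In Zscan4a, Zscan4b and Zscan4e replicate 3 was also the highest of both groups, with folds within numbers between 2.08 (Zscan4e, replicate 2) and 9.36 (Zscan4e, replicate 1).

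**Figure D5:**
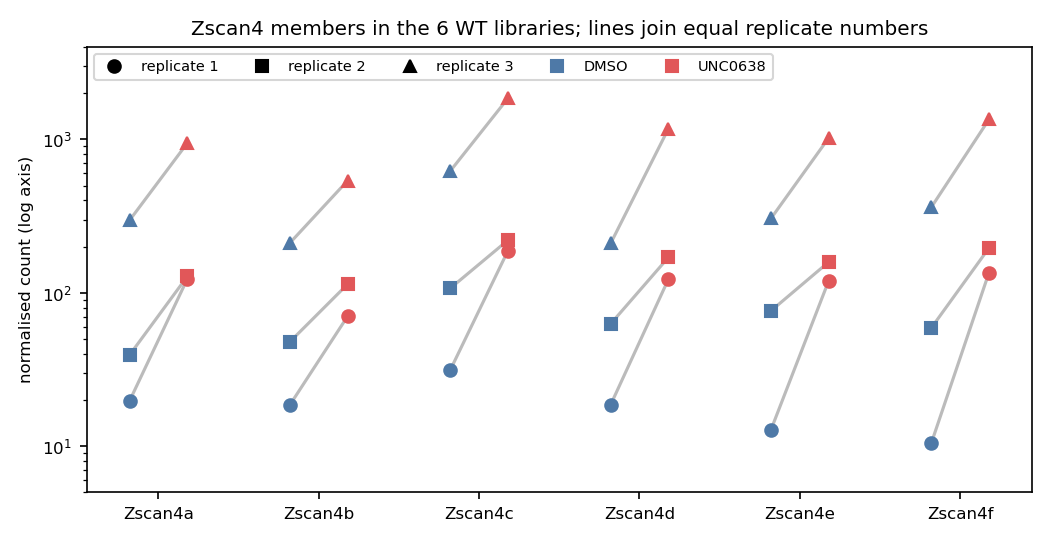
The y axis gives normalised counts on a log scale for each Zscan4 member (x axis) in the 6 WT libraries, blue for DMSO and red for UNC0638, with symbols for the replicate number and lines joining equal numbers. All 18 lines go up, and for each member the DMSO libraries span more than the step along any of its lines, as for Zscan4c from 31.4 to 622 under DMSO.

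In limma's test on log2(normalised count + 1) over 17258 genes, the log2 difference between UNC0638 and DMSO in WT was 2.40 (SE 1.01, adjusted p = 0.56) for Zscan4f and 2.18 (SE 0.86, adjusted p = 0.56) for Zscan4d. The others ran from 1.48 (Zscan4b) to 1.97 (Zscan4a), with adjusted p up to 0.59. These SEs pool the spread of all groups, and the members had 0 reads in every DPPA4KO library. The SEs thus understate the spread between WT libraries of a group, and the limma p-values for WT share this limit. By limma 0 of 6 members were called, meaning adjusted p under 0.05 and at least 2-fold, and so were 0% of all genes. At an unadjusted p under 0.05, 3 of 6 members were higher (Zscan4a, Zscan4d and Zscan4f), against 5.21% of genes, and 1504 genes passed that level in either direction. The count of 3 members at this level depends on single libraries and on the method. It was 0 without DMSO replicate 1 or without UNC0638 replicate 3, and 1 without DMSO replicate 2. It was 6 without DMSO replicate 3 or without UNC0638 replicate 1. With the replicate number as a block it was 5, and 6 with that block within genotype. With all libraries and no block it was 0 by DESeq2, 1 by edgeR and 2 by limma without the filter. A pseudocount of 0.5 gave 2 and a pseudocount of 5 gave 4. The quasi-likelihood test of edgeR called 0 genes and the Wald test of DESeq2 called 14, of which 0 were members. The sum of the group means was 3.43-fold higher with UNC0638, and this ratio was 11.4 without DMSO replicate 3, 1.04 without UNC0638 replicate 3 and 3.46 without both.

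MERVL moved with the family across the WT libraries. MERVL-int had 2199, 4355 and 12607 normalised counts in DMSO replicates 1 to 3 and 14593, 12274 and 53609 with UNC0638. Replicate 3 was again highest in both groups, though here its DMSO library lay between the UNC0638 libraries of replicates 1 and 2. Of the other 2-cell stage genes 11 were tested, 0 were called by limma, and their median log2 difference was 2.57. Gm21761, one of them, had 10.5, 30.8 and 259 under DMSO and 103, 96.2 and 485 with UNC0638. Summed mESC markers in these 6 libraries stayed between 0.458% and 0.611% of gene counts, and feeder markers between 0.0185% and 0.0276%, highest in replicate 2 of both groups and not in replicate 3.

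Without DPPA4 the family was not detected. All 6 members and all 3 further Zscan4 rows had 0 reads in each of the 6 DPPA4KO libraries, which together held 62293472 reads on genes, while the 6 WT libraries held 13254 member reads among 63762329. Counting 3 reads over the 3 libraries of a group as the limit that a count of 0 allows, the family could make up at most 0.100 CPM in DPPA4KO cells under DMSO and 0.0928 with UNC0638. Its level was thus at least 795-fold lower than the WT mean under DMSO and at least 3009.9-fold lower with UNC0638. For single members the bound ran from 88.1-fold (Zscan4b) to 241-fold (Zscan4c) under DMSO and from 252-fold to 789.6-fold with UNC0638. The bound leans on WT replicate 3: as log2 it was -9.64 for the family under DMSO and -7.90 without WT DMSO replicate 3, and -11.56 with UNC0638 and -9.84 without WT UNC0638 replicate 3. Feeder markers made up 0.0132% of gene counts in KO and 0.0223% in WT under DMSO, and 0.0142% and 0.0212% with UNC0638. Summed mESC markers were 0.643% in KO and 0.514% in WT under DMSO, and 0.589% and 0.497% with UNC0638, and the part of either list in the KO values was not tested.

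The members entered the test only through their WT reads, so their calls describe these values and add no support. By limma 6 of 6 were called lower in KO than in WT under DMSO, with adjusted p from 0.00061 to 0.0031, against 3.10% of all genes, and 6 of 6 with UNC0638, with adjusted p from 5.8e-05 to 0.00019, against 2.31% of genes. UNC0638 itself left the members at 0 in DPPA4KO cells, where 0.411% of all genes were called higher with the inhibitor. The difference between the UNC0638 effects in KO and WT had log2 values from -2.40 (Zscan4f) to -1.48 (Zscan4b) and adjusted p from 0.78 to 0.8 by limma. This contrast called 0 of 6 members and 0% of genes, with 1076 genes at an unadjusted p under 0.05 and 0 calls by edgeR or DESeq2. These fitted values depend on the pseudocount wherever a group is at 0.

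Other genes of the 2-cell stage were also lower in DPPA4KO cells, though not all of them were at 0. Of the 17 listed genes 11 were tested, again mostly through WT reads. By limma 4 were called lower in KO under DMSO, against 3.10% of all tested genes, and 10 with UNC0638, against 2.31%. Their median log2 differences were -3.09 and -5.87, against -0.03 and -0.04 over all tested genes. Duxf3 was at 0 in all 6 KO libraries, and it had no more than 27.9 normalised counts in any WT library. Arg2, which is also expressed outside the 2-cell stage, kept a mean of 5.22 in KO under DMSO, against 11.7 in WT. MERVL-int kept 444 to 1407 normalised counts in the KO libraries, below every WT library, so reads of this repeat were present where Zscan4 was at 0. Dppa2, the partner of Dppa4, had a mean of 1148 in KO and 809 in WT under DMSO and was not called (limma, adjusted p = 0.069).

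Genes whose pattern over the 15 groups was most like that of the family were sought among 15168 genes, with log2 values centred within each experiment, so that the large offsets between experiments did not count. The 5 nearest were Gm4340 (Pearson r = 0.9876 with the family sum), Gm21293, Gm21312, Gm20765 and Gm8764 (r = 0.9754). All 5 are protein-coding models in 1 cluster on chromosome 10 (GRCm38, between 104142987 and 104196522) and are no members of the family. Gm4340 had 19.5 in DMSO and 295 in dTAG at 24 h, 101 and 2194 at 15 d and 137 in Recovery, and was at 0 in both KO groups. It parted from the family in GFP-positive cells, with 45069.8 under DMSO and 87977 under dTAG. A likeness over 15 means that share depth, scaling and the KO zeros is a description, and 28 genes had r above 0.95.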

How the data were processed

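RNA of 45 libraries had been sequenced, from stranded poly(A)-selected libraries in the time course and washout, low-input libraries in the sorting experiment and poly(A)-enriched libraries in the Dppa4 experiment. The authors trimmed reads with Trim Galore 0.6.7, aligned them to mm10 with STAR 2.7.10 without introns, allowed up to 5000 places per read and wrote 1 of the best-scoring places, and counted genes of GENCODE vM25 with TEcounts. The deposited signal values are counts that the authors divided by DESeq2 1.34.0 size factors: 11 group means, given here as the authors' means, and 12 single libraries. Whole reads were recovered for 100% of the single-library values (tolerance 0.01 read). Deposited fold changes and p-values of the authors' comparisons were not used.

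The members and gene lists were chosen with earlier results of these data known. Genes named in the text are the members, the rows that begin with Zscan4, fixed lists, the 5 nearest patterns and the genes next to the locus. Limma 3.58.1 (trend) was fitted to log2(normalised count + 1) in the Dppa4 experiment, over 17258 of 55401 rows that passed edgeR's filter, with Benjamini-Hochberg adjustment. EdgeR 4.0.16 and DESeq2 1.42.0 (R 4.3.3) were alternatives, and the fits were tested on simulated data. A test was planned for the other experiments, but group means allow none. P-values measure the spread between clones, pooled over all groups of the experiment. The members were at 0 in every DPPA4KO library, which lowers this pooled spread for them. Same-numbered DMSO and UNC0638 libraries deviated together in WT (r = 0.25, 0.10 and 0.43) but not in every KO pair (0.15, -0.09 and 0.01), so the replicate number was no term of the main model. Transcripts were aligned with MAFFT from GENCODE vM21 (GRCm38), in which 52570 of the 55401 identifiers matched with their symbol.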

Additional observations from a re-analysis of the deposited data

How the results depend on the processing

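With the replicate number as a replicate block, 0 of 6 members were called for UNC0638 in WT (adjusted p from 0.35 to 0.43 by limma), and also with the replicate block fitted within genotype, an alternative chosen after seeing the data (0.33 to 0.38 by limma, 0.059 to 0.19 by edgeR). The replicate block changed no call of a member. Leaving out 1 library at a time kept the count at 0, with adjusted p from 0.34 to 0.96, and put the log2 ratio of the family sum between 0.06 (without UNC0638 replicate 3) and 3.51 (without DMSO replicate 3). The count of 6 members lower in KO held in limma and edgeR under all alternatives; DESeq2 called 5 and gave no adjusted p for Zscan4a. Without 1 library at a time, the log2 bound on the family sum in KO ran from -10.15 to -7.90 under DMSO and from -12.01 to -9.84 with UNC0638. Without replicate 3 in all groups, also chosen after seeing the data, that bound moved from a log2 of -9.64 to -7.39 under DMSO and from -11.56 to -9.19 with UNC0638, as the WT means without it are lower. Over all genes, those called higher with UNC0638 in KO numbered 71 in limma, 12 without the filter on low counts, 32 in edgeR and 241 in DESeq2. In the comparisons of means, the counts of members past 2-fold were the same with a pseudocount of 0.5 or 5 and without the filter, and the sum kept its direction with a pseudocount of 5 and over all 9 rows. Other size factors, replicate blocks and left-out libraries could not be tried there, since the means hold no single library. Depth is unknown for those 33 libraries, so no limit can be set on their low values.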

Other observations

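Some other annotated rows within the Zscan4 cluster had reads mainly in GFP-positive cells, and the expressed genes on either side went in both directions. Within the span of the 9 Zscan4 rows on chromosome 7 lie 44 other annotated rows, most of them pseudogenes, of which 11 reached a mean of 10 in any group and 0 passed the filter of the Dppa4 experiment. In the sorted DMSO cells 9 of the 44 had a mean of at least 10, and all 9 were at least 2-fold higher in GFP-positive cells, among them Gm45551, an unprocessed pseudogene (4.72 in GFP-negative and 1073 in GFP-positive cells), and Gm18204 (0 and 476). Each of the 9 had a mean under 10 in GFP-negative cells and so entered only through the GFP-positive group, and 17.0% of all genes were higher in this comparison. Outside the span, 3 expressed genes on each side were taken, with values in GFP-negative and GFP-positive DMSO cells. On one side Gm45351, a pseudogene, had 8.34 and 24.1 and was past 2-fold, Zik1 had 252 and 145, and Gm6900 had 191 and 244. On the other side Gm10179 had 102 and 80.5, Zfp551 27.0 and 23.7 and Zscan18 171 and 226. None of the 6 flanking genes tested (3 on each side) was called between KO and WT by limma, with adjusted p between 0.12 and 0.91.

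Genes of telomere upkeep and meiotic recombination, the processes with which Zscan4 is linked, were also followed as a list. Of 14 listed genes 13 were found (Terc was not) and 12 had a mean of at least 10, Spo11 being at or near 0 throughout. Against DMSO, 0 of 12 were at least 2-fold higher under dTAG at 24 h or 7 d, against 3.58% and 5.38% of all genes. At 7 d 1 was lower (Dmc1, the meiotic recombinase, with 180.0 and 74.5). At 15 d 1 was higher (Smc1b, a meiotic cohesin subunit, with 3.59 and 14.5), against 5.48% of all genes. For a list of 12, the counts of higher genes are near these shares. Smc1b did not fall after washout: in Recovery its log2 ratio was 2.05 over DMSO and 0.30 over dTAG at 15 d. Its DMSO mean is low. Between GFP-positive and GFP-negative cells in DMSO, Tert, the telomerase reverse transcriptase, was the only one of the 12 past 2-fold, with 247 in GFP-negative and 94.2 in GFP-positive cells. Thus 0 of 12 were at least 2-fold higher in GFP-positive cells, against 17.0% of all genes. Rif1, which also sits on the list of repressors, had 2816 and 5519.5. In the Dppa4 experiment limma called 0 of 12 with UNC0638 in WT, where it called 0% of all genes. Dnmt3b, a DNA methyltransferase, was the 1 called lower in KO than in WT by limma. Its log2 difference was -1.09 (adjusted p = 0.029) under DMSO and -1.22 (adjusted p = 0.021) with UNC0638. Of all genes, 3.10% and 2.31% were called lower in KO in these 2 settings. These genes and those of the locus were named by a rule set with earlier results of these data known.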
